A study of Arabidopsis thaliana with 6 samples.

Results

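The CC-type glutaredoxins are a plant-specific branch of the glutaredoxins, and 10 of their loci were examined on Affymetrix arrays of Arabidopsis thaliana seedlings. The 10 loci were chosen by identifier with earlier results of these arrays in view, among them the fall of AT2G47880. Of the 10, 8 were named by a probe set that reports on a single gene, out of 13355 genes named in this way. The loci AT2G47870 and AT4G15670 were not, and have no value here. Total RNA came from seedlings of the mutants bin4-2 and bin4-1 and of wild type (WT), with 2 arrays for each genotype and 6 arrays in all. BIN4 is a plant subunit of topoisomerase VI, an enzyme that untangles DNA and that plant cells require for endoreduplication, in which the genome is copied while the cell does not divide. By its title the series concerns topoisomerase VI and the spread of heterochromatin into euchromatic islands. Nothing in the labels gives the age of the seedlings or says whether the 2 arrays of a genotype came from separate cultures, so the errors below may be technical.

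Glutaredoxins are small proteins that use glutathione to reduce disulfide bonds or to move glutathione on and off other proteins. The CC-type members carry adjacent cysteines in the active site and are found only in land plants. Many of them bind TGA transcription factors, and in Arabidopsis the family is known for roles in petal and anther development, in jasmonate and salicylate defence responses, and in the response to nitrate. Some members move from shoot to root as signals of nitrogen demand. By locus order, the 10 loci form a pair on chromosome 2 (AT2G47870 and AT2G47880), a pair on chromosome 3 (AT3G62950 and AT3G62960), a run of 5 consecutive loci on chromosome 4 (AT4G15660 to AT4G15700) and the single locus AT5G18600 on chromosome 5. The files and the reference table give these 10 loci no symbol, so they are called by locus.

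All values below are log2 of the deposited RMA intensity unless called a change or a fold. Changes are log2 differences from a limma fit of all genes, with its standard error (SE). Levels of different probe sets cannot be compared with each other, since each has its own brightness. The arrays had a median of 4.70 to 4.75, a lower quartile of 3.22 to 3.34 and a 5th percentile of 2.53 to 2.63. Arrays of 1 genotype correlated at 0.995 to 0.997, bin4-2 with bin4-1 arrays at 0.995 to 0.996, and mutant with WT arrays at 0.905 to 0.916. BIN4 itself (AT5G24630) had mean values of 2.98 ± 0.09 in bin4-2, 3.33 ± 0.04 in bin4-1 and 3.86 ± 0.11 in WT (SD, n = 2 each). Of the marker genes chosen for the tissue, those of shoot, phloem, xylem, epidermis, flower and seed were not named by a single-gene probe set here. For the root, 2 of 4 were measured, and both are expansins of root hairs.

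The 8 measured genes did not move as a group. AT2G47880 was far lower in both mutants, AT3G62960 was slightly lower, AT4G15700 and AT5G18600 were higher, and the other 4 lay near their WT values. These contrasts against WT are those in whose view the loci were chosen. The values, intervals and limma calls given for the 8 genes against WT are therefore a description and not a test. At a limma adjusted p of 0.05, 2 of the 8 lay below and 2 above WT in bin4-2, where 26.6% of all genes were called lower and 21.1% higher (47.7% in either direction). In bin4-1 the counts were again 2 and 2, against 25.0% and 22.0% of all genes (46.9% in either direction). Nothing is read from these counts, since the choice of loci used the same contrasts. The median change of the 8 genes was -0.05 in bin4-2 and -0.15 in bin4-1, against -0.09 and -0.08 over all genes.

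**Figure D1:**
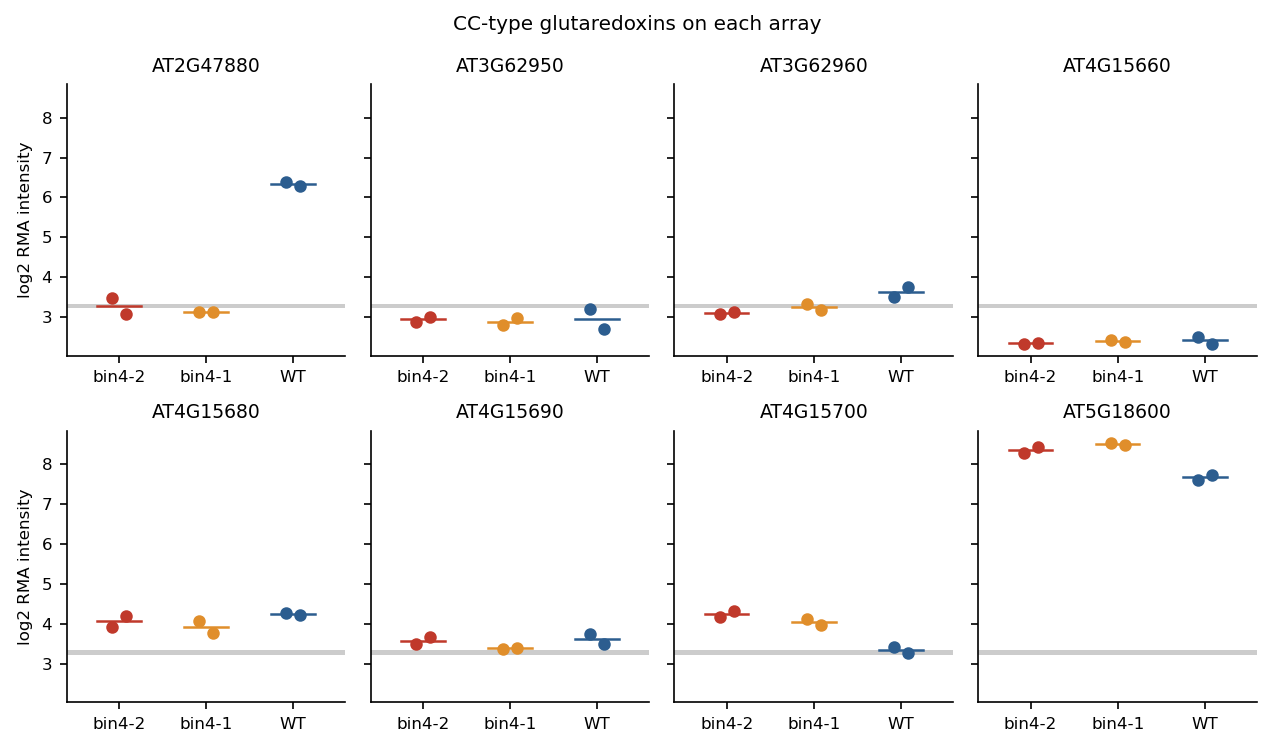
Log2 RMA intensity (vertical axis) of the 8 measured CC-type glutaredoxins on each array of bin4-2, bin4-1 and WT. Points are arrays, short lines are group means, and the grey band spans the lower quartile of the 6 arrays (3.22 to 3.34). AT2G47880 lies at 3.09 to 3.49 on the mutant arrays and at 6.29 and 6.38 on the WT arrays, while AT5G18600 is higher on every mutant array than on either WT array.

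AT2G47880, of the chromosome 2 pair, had values of 3.49 and 3.09 in bin4-2, 3.14 and 3.14 in bin4-1, and 6.38 and 6.29 in WT. As intensities these were 11.3 and 8.52 in bin4-2, 8.82 and 8.8 in bin4-1, and 83.5 and 78.2 in WT. The mutant arrays thus lay within or near the band of the lower quartile, far below both WT arrays and without overlap. Its change was -3.04 ± 0.13 in bin4-2 (SE), or 8.25-fold lower. In bin4-1 it was -3.20 ± 0.13, or 9.17-fold lower. The files give no background level, so how much of the mutant signal is background is not known and the folds depend on how dim values are treated. With an offset of 16 added before log2 the changes were -1.90 in bin4-2 and -1.96 in bin4-1. In these bulk seedlings, fewer cells of a type and less RNA per cell cannot be told apart. The root-hair expansin EXPA18 was lower too, with changes of -1.46 in bin4-2 and -1.09 in bin4-1 (limma adjusted p = 8.22e-07 and 9.74e-06). The other root expansin, EXPA7, fell by 0.57 in bin4-2 (adjusted p = 0.00163), and its change of -0.21 in bin4-1 did not pass (adjusted p = 0.174). Their part in the glutaredoxin values was not tested. The tandem partner AT2G47870 has no value here, so the copies of this pair could not be compared.

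The chromosome 3 pair was dim on every array. AT3G62960 had values of 3.08 and 3.12 in bin4-2, 3.33 and 3.18 in bin4-1, and 3.50 and 3.76 in WT. Both WT arrays lay above all 4 mutant arrays, by a small margin. The change was -0.53 ± 0.12 in bin4-2 and -0.38 ± 0.12 in bin4-1 (SE), so its fold was 1.44 lower in bin4-2 and 1.30 lower in bin4-1. The call in bin4-1 was lost when WT replicate 2 was left out (change -0.24) and when bin4-1 replicate 2 was left out (-0.30). With an offset of 16 it was lost as well (-0.15), and the change of AT3G62960 in bin4-2 was -0.21. Its neighbour AT3G62950 had 2.89 and 3.0 in bin4-2, 2.80 and 2.97 in bin4-1, and 3.21 and 2.71 in WT. The WT arrays of AT3G62950 spanned all 4 mutant arrays, and the changes were -0.02 ± 0.15 in bin4-2 and -0.08 ± 0.15 in bin4-1. With 1 array left out in turn they ran from -0.27 to 0.23 in bin4-2 and from -0.33 to 0.18 in bin4-1, so no direction is read.

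Of the 4 measured copies in the chromosome 4 run, AT4G15700 was higher in both mutants and the others lay within 0.34 of WT. AT4G15700, the last copy, had 4.16 and 4.32 in bin4-2, 4.12 and 3.97 in bin4-1, and 3.41 and 3.28 in WT. All 4 mutant arrays lay above both WT arrays. It was 1.85-fold higher in bin4-2 (change 0.89 ± 0.11, SE) and 1.63-fold higher in bin4-1 (0.70 ± 0.11). All its values lay below the array median, so these folds depend on how dim values are treated. With an offset of 16 added before log2 the changes of AT4G15700 were 0.41 in bin4-2 and 0.31 in bin4-1.

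The adjacent copy AT4G15690 had 3.49 and 3.67 in bin4-2, 3.37 and 3.40 in bin4-1, and 3.74 and 3.49 in WT, with changes of -0.03 and -0.23. Here bin4-2 overlapped WT, and bin4-1 lay just below it. AT4G15680 had 3.93 and 4.2 in bin4-2, 4.07 and 3.76 in bin4-1, and 4.28 and 4.23 in WT. All its mutant arrays lay below WT, with changes of -0.18 ± 0.13 in bin4-2 and -0.34 ± 0.13 in bin4-1 (SE), and neither was called. In bin4-1 it was called lower with 75th-percentile centring (-0.38), without bin4-1 replicate 1 (-0.49), without either bin4-2 array and in a fit of bin4-1 and WT alone (-0.34 each). AT4G15690 was called lower in bin4-1 without WT replicate 2 (-0.35). The first copy, AT4G15660, had 2.34 and 2.36 in bin4-2, 2.43 and 2.39 in bin4-1, and 2.51 and 2.34 in WT. All 6 values of AT4G15660 lay below the 5th percentile of the arrays, where a fall could not be seen.

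AT5G18600, which has no tandem copy among the 10 loci, was well above the array median in every group. Its intensities were 309 and 348 in bin4-2, 368 and 355 in bin4-1, and 195 and 211 in WT. On the log2 scale this was 8.27 and 8.44 in bin4-2, 8.52 and 8.47 in bin4-1, and 7.61 and 7.72 in WT, with no overlap between mutants and WT. It was 1.62-fold higher in bin4-2 (change 0.69 ± 0.11, SE) and 1.78-fold higher in bin4-1 (0.83 ± 0.11).

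**Figure D2:**
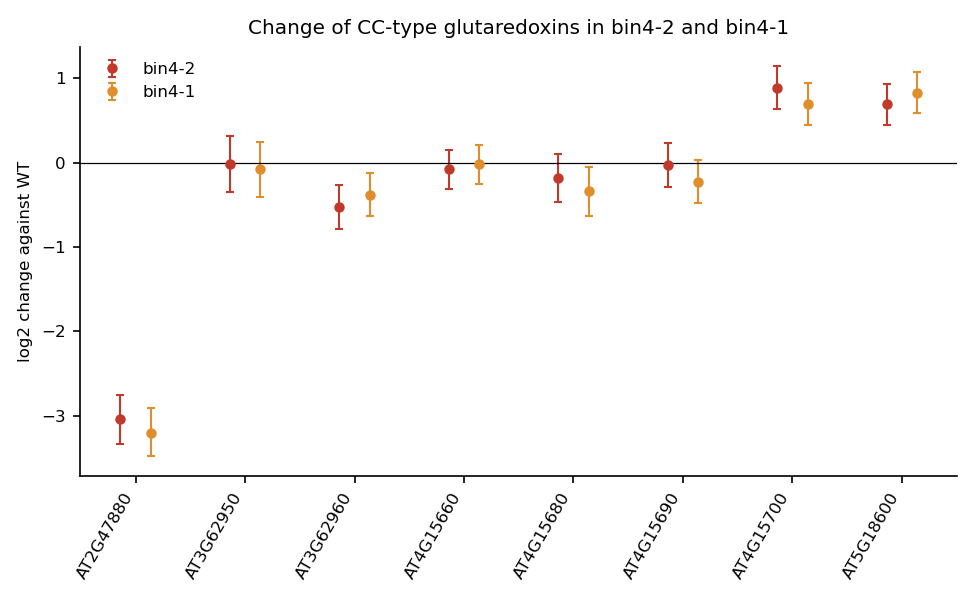
Log2 change against WT (vertical axis) of the 8 genes in bin4-2 and bin4-1, with 95% confidence intervals from the limma fit, given as a description. AT2G47880 lies at -3.04 and -3.20, AT4G15700 and AT5G18600 lie between 0.69 and 0.89, and the rest lie between -0.53 and -0.02.

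Tandem copies were then set against each other within each array, since the difference of 2 probe sets on 1 array removes what both share there. Each difference is given relative to its WT mean, with the 2 WT arrays at equal distances on either side of 0. AT4G15700 minus AT4G15690 was 0.93 and 0.91 in bin4-2, 1.02 and 0.84 in bin4-1, and -0.06 and 0.06 in WT. The neighbours thus parted by 0.92 in the mean of both alleles, a 1.90-fold shift, with a within-group SD of 0.09. Both probe sets were below the array median, and with an offset of 16 added before log2 this shift was 0.42. For AT4G15690 minus AT4G15680 the mean of both alleles was 0.13 (SD 0.16), with the mutant arrays between -0.05 and 0.28 and the WT arrays at 0.10 and -0.10. For AT4G15680 minus AT4G15660, which have AT4G15670 between them, the mean was -0.21 (SD 0.16), and the mutant arrays lay between -0.45 and 0.02. Within this run, the mutant arrays stood apart from WT for AT4G15700 against its neighbour and overlapped WT for the other 2 pairs. AT4G15660 lay below the 5th percentile on every array, so its pair with AT4G15680 cannot show whether these copies moved together.

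On chromosome 3, AT3G62960 minus AT3G62950 was -0.47 and -0.54 in bin4-2, -0.14 and -0.46 in bin4-1, and -0.38 and 0.38 in WT. The WT arrays disagreed by more than the mutants departed from them, so no difference between these copies could be seen. The second locus of each pair can be compared across chromosomes. AT3G62960 minus AT2G47880 was 2.30 and 2.74 in bin4-2, 2.89 and 2.75 in bin4-1, and -0.18 and 0.18 in WT. This mostly restates the fall of AT2G47880, to values in or near the lower quartile. AT3G62960 was dim in WT already, so a fall of the size seen for AT2G47880 could not have been measured there. RNA of near-identical copies can bind each other's probes, which leaves values of tandem copies uncertain. All 8 probe sets carry the plain suffix that the manufacturer gives to sets meant for 1 transcript, and their cross-hybridisation was not tested.

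**Figure D3:**
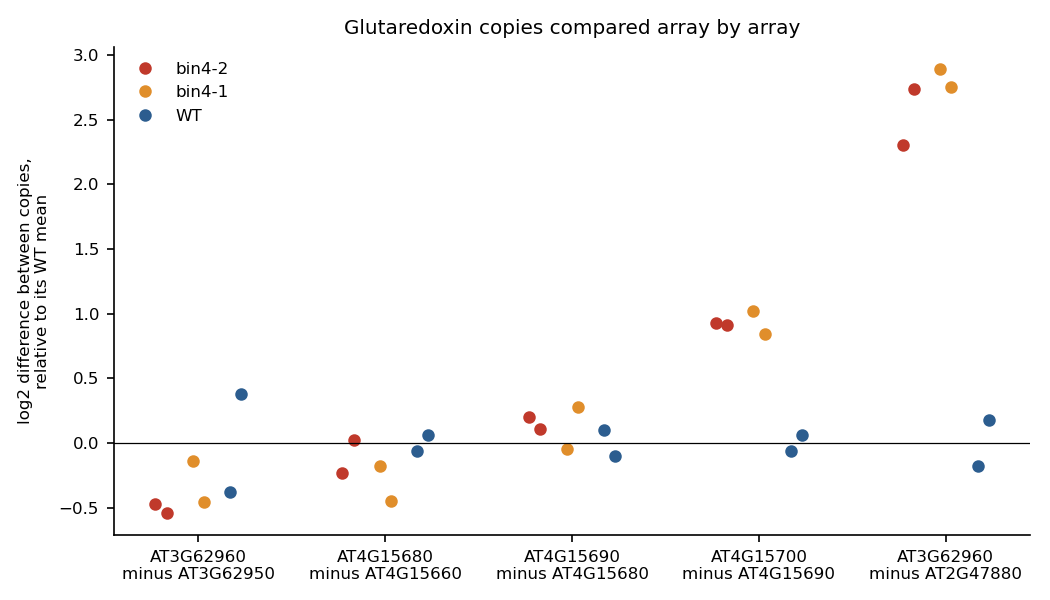
Log2 difference between glutaredoxin copies on each array of bin4-2, bin4-1 and WT, relative to the mean of the 2 WT arrays (vertical axis). Points are arrays. AT4G15700 minus AT4G15690 lies at 0.84 to 1.02 on all 4 mutant arrays, and AT3G62960 minus AT2G47880 at 2.30 to 2.89.

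The alleles were compared with each other, a contrast for which the loci were not chosen, apart from AT2G47880, which was listed earlier for its fall in bin4-2. For AT2G47880 the difference, given as a description, was 0.15 (95% interval -0.14 to 0.44). In limma 0 of the 8 genes differed between bin4-2 and bin4-1 at an adjusted p of 0.05, and 0 of 8 had an unadjusted p under 0.05. Over all genes 0.247% were called in this contrast. For AT4G15690 the difference was 0.20 (95% interval -0.06 to 0.45, adjusted p = 0.836) and for AT4G15700 it was 0.19 (-0.06 to 0.44, adjusted p = 0.835). For AT5G18600 it was -0.14 (-0.38 to 0.10) and for AT3G62960 -0.15 (-0.41 to 0.11). The intervals of all 8 genes lay within -0.41 and 0.45, so differences in signal up to these sizes remain possible. Only AT5G18600 had a mean log2 of at least 5. The other genes were dim in both alleles, where larger differences in RNA could go unseen.

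Other CC-type glutaredoxins, placed in the family from general knowledge since most have no symbol in the reference table, were read from the same fit. Of 11 such loci 9 were measured, of which 5 fell and 2 rose in each mutant. These are 55.6% and 22.2% of the 9, beside 26.6% and 21.1% of all genes in bin4-2 and 25.0% and 22.0% in bin4-1. The list was chosen with earlier results of these data known, so nothing is read from these counts. AT1G06830 had 4.96 and 5.01 in bin4-2, 4.66 and 4.51 in bin4-1, and 7.54 and 7.62 in WT, with no mutant array near WT. Its fold against WT was 6.03 lower in bin4-2 (limma adjusted p = 3.84e-09) and 7.96 lower in bin4-1 (1.25e-09). GRX480, also called ROXY19, a salicylate-induced member that binds TGA factors, moved the other way. It had 7.35 and 7.21 in bin4-2, 6.74 and 6.57 in bin4-1, and 3.52 and 3.83 in WT, which made it 12.1-fold higher in bin4-2 and 7.86-fold higher in bin4-1 (adjusted p = 1.29e-09 and 5.12e-09). Its WT values were near the lower quartile, and with an offset of 16 its changes were 2.57 in bin4-2 and 2.02 in bin4-1, against 3.60 and 2.97 without it.

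Of the remaining other CC-type genes, AT2G30540 changed by -1.51 in bin4-2 and -1.62 in bin4-1, AT1G03020 by -1.07 and -1.18, and AT3G62930 by -0.88 and -1.06. Their mutant arrays were dim, at 3.16 to 3.34 for AT2G30540, 2.59 to 2.84 for AT1G03020 and 3.29 to 3.48 for AT3G62930. These values lay below or near the lower quartile, so the sizes of these falls depend on how dim values are treated. With an offset of 16 the falls shrank, to -0.77 for AT2G30540 in bin4-2 and to -0.5 for AT3G62930 in bin4-1. AT1G03020 then gave -0.41 in bin4-2 and -0.44 in bin4-1. AT3G62930 stands on chromosome 3 close to the pair AT3G62950 and AT3G62960. The anther-development genes ROXY1 and ROXY2 gave -0.24 and -0.57 in bin4-2 and -0.17 and -0.48 in bin4-1, of which those of ROXY2 passed (adjusted p = 0.00413 and 0.0112). ROXY1 passed in bin4-2 without WT replicate 1 (-0.40). The ROXY2 call in bin4-1 was lost without WT replicate 1 or bin4-1 replicate 1 (changes of -0.39 and -0.29). AT4G33040 rose by 0.41 and 0.33, and AT5G11930 gave 0.06 and 0.12 without passing. The call of AT4G33040 in bin4-1 was lost without either bin4-1 array (0.30 and 0.37), which lowers the count of rises there to 1. Between the alleles, GRX480 was 0.62 higher in bin4-2 (adjusted p = 0.0877), and AT1G06830 was 0.40 higher (adjusted p = 0.246). In limma 0 of the 9 passed this contrast, and 2 had an unadjusted p under 0.05. The GRX480 difference passed with an intensity trend (adjusted p = 0.00742), among genes with a mean of at least 5 (0.0373), in a fit of the 2 alleles alone (0.0424) and without either WT array (0.0424 each). Over all alternatives its adjusted p ran from 0.00742 to 0.731, with 0.14 under the replicate block.

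Glutaredoxins of the classes shared with other organisms were also read from this fit. Of 10 loci 5 were measured, all but AT2G20270 with positive changes, and 3 rose and 1 fell in each mutant. Over all genes 21.1% were higher and 26.6% lower in bin4-2, and 22.0% higher and 25.0% lower in bin4-1. This list too was chosen with earlier results known, so nothing is read from its counts. GRXC1 had 8.15 and 8.20 in bin4-2, 8.08 and 8.23 in bin4-1, and 6.23 and 6.40 in WT, and was 3.61-fold higher in bin4-2 and 3.58-fold higher in bin4-1 (limma adjusted p = 7.42e-08 and 6.89e-08). AT2G20270 fell by 0.66 in bin4-2 (adjusted p = 0.000164) and by 0.88 in bin4-1 (1.52e-05). AT5G20500, which did not pass, gave 0.25 and 0.19 (adjusted p = 0.0697 and 0.17), and passed with an intensity trend in both alleles (0.00345 and 0.0256). In bin4-2 it also passed with an offset of 16 (0.0201) and with a mean log2 of at least 5 (0.0294). Whether the classes differ in response was not tested.

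**Figure D4:**
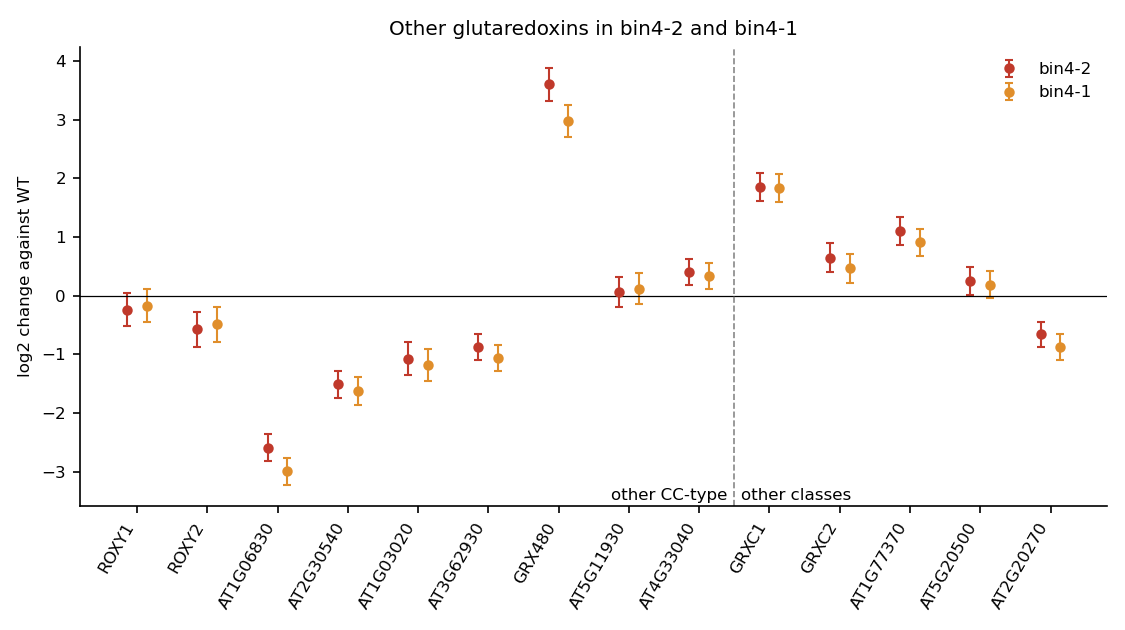
Log2 change against WT (vertical axis) of 9 other CC-type glutaredoxins and 5 glutaredoxins of other classes in bin4-2 and bin4-1, with 95% confidence intervals from the limma fit. GRX480 lies highest, at 3.60 and 2.97, and AT1G06830 lowest, at -2.59 and -2.99.

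Genes that work with glutaredoxins were sparsely covered. None of 10 TGA factor genes, none of 5 TOPLESS corepressor genes and 1 of 18 nitrate genes was named by a single-gene probe set. That nitrate-list gene, AT4G32950, gave 0.20 in bin4-2 and 0.29 in bin4-1 (limma adjusted p = 0.15 and 0.0421). Its bin4-1 call was lost when any single array was left out of the fit except WT replicate 1, with changes of 0.21 to 0.32. With all arrays it was lost with 75th-percentile centring (adjusted p = 0.0886) and with an offset of 16 (0.0737). An intensity trend (0.0967) and a fit of bin4-1 and WT alone (0.0538) lost it too. Of 4 genes of glutathione synthesis and reduction 2 were measured. GR1, a glutathione reductase, rose by 0.38 and 0.36 (adjusted p = 0.00985 and 0.0132), and GR (AT3G54660), the organellar enzyme, fell by 1.00 in each mutant (adjusted p = 6e-06 and 6.19e-06). The bin4-2 call of GR1 was lost without bin4-2 replicate 1 (0.34), and its bin4-1 call without WT replicate 1 (0.31) or bin4-1 replicate 2 (0.32). Of 10 type-A response regulators, which are induced by cytokinin, 2 were measured. ARR15 fell by 0.48 in bin4-2 and 0.53 in bin4-1. It lay near or below the lower quartile on every array, and with an offset of 16 its changes were -0.18 and -0.19. ARR16 gave -0.22 in bin4-2 and -0.31 in bin4-1 without passing in either allele (adjusted p = 0.156 and 0.05). Without bin4-2 replicate 2, ARR16 passed in both (adjusted p = 0.047 in bin4-2 and 0.0344 in bin4-1), and without bin4-2 replicate 1 in bin4-1 (0.0344). In bin4-1 ARR16 also passed with 75th-percentile centring (0.0262), with all non-control probe sets (0.0456) and in a fit of bin4-1 and WT alone (0.0344). It was called lower in the mean of both alleles (-0.26, adjusted p = 0.0494).

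The nearest measured genes on the chromosome were read to see how far each change ran along the locus order. With 3 measured genes on either side of each of the 4 places, 24 flanking genes were examined in the mean of both alleles. Of these 7 were lower and 6 higher, or 29.2% and 25.0%, beside 28.8% and 23.2% of all genes in that contrast (52.0% in either direction). The nearest measured genes around the chromosome 2 pair did not pass: SETH6 (AT2G47860) gave -0.01 and AT2G47890 gave 0.13 (limma adjusted p = 0.961 and 0.262). The gene directly after AT4G15700, AT4G15710, gave -0.13 (adjusted p = 0.252). AT5G18590 and AT5G18610, on either side of AT5G18600, gave -0.40 and -0.14 (adjusted p = 0.00296 and 0.219). At these 3 places the adjoining measured genes did not share the direction of the glutaredoxin past the threshold, but some genes farther out did. Beyond AT5G18610, AT5G18620 and AT5G18630 were higher (0.26 and 1.53, adjusted p = 0.0262 and 4.98e-08), while 2 of the 6 flanking genes there were lower. Around the chromosome 2 pair, AT2G47850 and NET3C were lower (-0.52 and -0.75, adjusted p = 0.000836 and 0.000161), while 2 of 6 were higher. At the chromosome 3 pair, the nearest measured gene before it, AT3G62930, was lower at -0.97 (adjusted p = 1.64e-06), as AT3G62960 was, while AT3G62970 after it gave -0.18 (adjusted p = 0.137). AT3G62930 is itself a CC-type glutaredoxin and is among the 9 described above. Larger changes stood farther off, such as GID1B, a gibberellin receptor, with 2.11 (adjusted p = 4.21e-09) beyond the chromosome 3 pair.

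**Figure D5:**
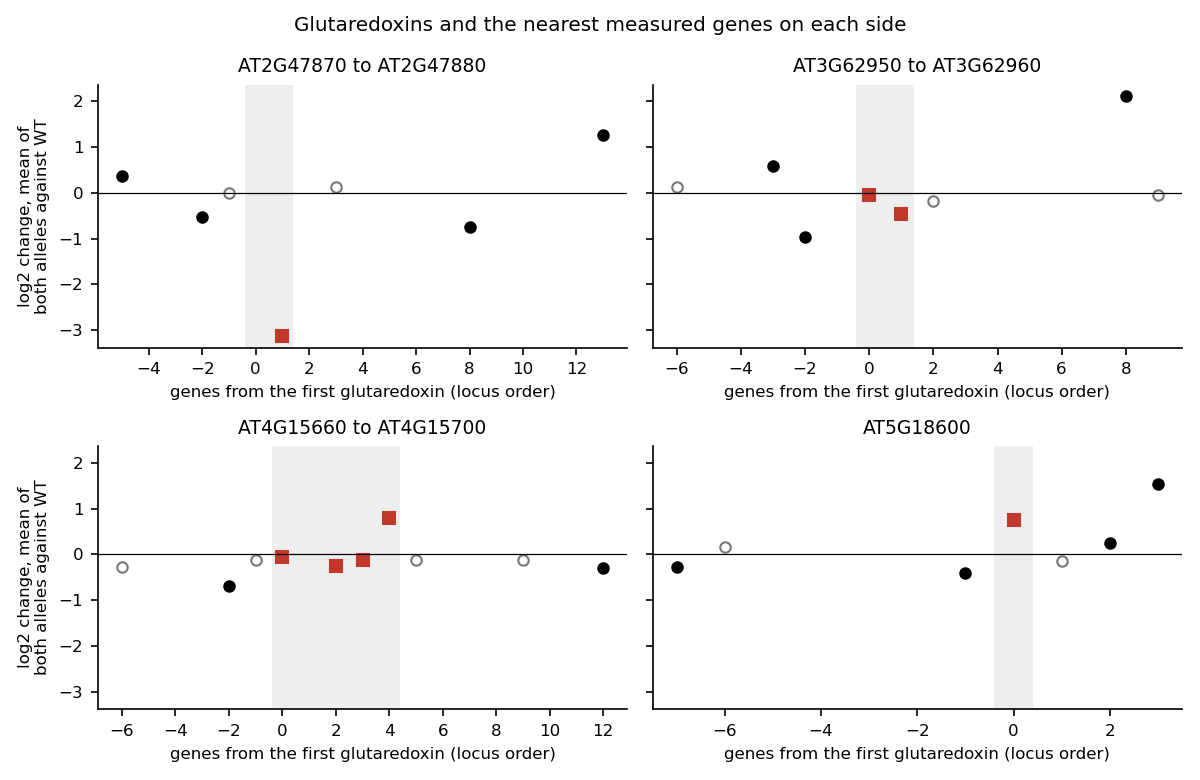
Log2 change in the mean of both alleles against WT (vertical axis) of the glutaredoxins (red squares, shaded) and of the 3 nearest measured genes on each side, by their place in the locus order (horizontal axis, number of loci from the first glutaredoxin). Filled points passed a limma adjusted p of 0.05 and open points did not; AT2G47880, at -3.12, lies below its flanking genes, which lie between -0.75 and 1.27.

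The genes nearest to each glutaredoxin in pattern were found by the root mean square difference of the 6 log2 values after removing each gene's mean. Over the 6 arrays, AT2G47880 was nearest to AT2G10940 (0.136) and AT4G26010 (0.177), and 0 genes lay within 0.05 of it. AT2G10940 changed by -2.82 in bin4-2 and -3.21 in bin4-1. AT4G15700 was nearest to AT1G02750 (0.0323) and AT3G57120 (0.0355), and AT5G18600 to AT5G45410 (0.0365) and AT5G10740 (0.0376). AT3G62960 was nearest to AT2G29660 (0.03) and AT1G43930 (0.0342). AT3G62950 was nearest to AT5G38380 and AT3G58770, AT4G15680 to AT5G15190 and AT1G61450, and AT4G15690 to AT5G56800 and AT3G49100, all between 0.0401 and 0.0488. AT4G15660 had RAB6A (0.0186) and AT3G29140 (0.0189) nearest and 113 genes within 0.05, so its flat pattern singles out none.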

How the data were processed

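The authors deposited 1 intensity per probe set and array, made with RMA, as the submitters' processing notes name it. The RMA version is not stated there. Values lie on a linear scale, so log2 was taken here of what the authors deposited. Of 22810 probe sets, 64 are controls and 13513 have 1 gene in the platform annotation, of which 13436 were matched to RefSeq (TAIR10.1) and 77 kept the platform's name. For 147 genes with several probe sets the brightest was kept, leaving 13355 genes. Groups were taken from the labelled genotype.

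All 6 arrays entered 1 fit of 3 group means by the lmFit and eBayes functions of limma 3.58.1 (R 4.3.3), with 3 residual and 8.25 prior degrees of freedom, two-sided, with Benjamini-Hochberg adjustment over all genes and a threshold of 0.05. The fit was run on simulated data with independent noise and few changed genes. Far more genes were called on these arrays, so that run does not show whether the calls here are sound. For arrays, their number limits the precision. Figures used matplotlib 3.10.9. The members and lists were chosen with earlier results of these data known. Named genes are all measured members, list genes (all of a list of up to 4, otherwise the lowest and highest, with the other glutaredoxins added after their values were seen), flanking genes (a set added later, of which those named were chosen after their values were seen) and the 2 nearest in pattern. Chromatin and sequencing data mentioned in the design text were not analysed here, and no sequences are shown.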

Additional observations from a re-analysis of the deposited data

How the results depend on the processing

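Without 1 array in turn, AT2G47880 stayed lower and AT4G15700 and AT5G18600 higher in both alleles, and 0 members differed between the alleles in any setting. Members lower in bin4-1 numbered 1 to 3 over these fits, other CC-type genes higher in bin4-1 1 to 2, and AT3G62960 minus AT3G62950 ran from -0.79 to -0.02. The median member change ran from -0.19 to 0.05 in bin4-2, from -0.28 to -0.02 in bin4-1 and from 0.01 to 0.10 between alleles. The sign turned for differences near 0: between alleles AT3G62950 ran from -0.03 to 0.14, AT4G15680 from 0.00 to 0.31 and AT2G47880 from -0.05 to 0.35, and AT5G11930 in bin4-1 from -0.03 to 0.26. Against WT it turned for uncalled members: AT3G62950 ran from -0.27 to 0.23 in bin4-2 and from -0.33 to 0.18 in bin4-1, AT4G15690 in bin4-2 from -0.15 to 0.09 and AT4G15660 in bin4-1 from -0.10 to 0.06. Under quantile normalization AT3G62950 and AT4G15690 in bin4-2 and AT4G15660 in bin4-1 also turned (0.06, 0.02 and 0.04). Quantile normalization gave medians of 0.00 in bin4-2 and -0.10 in bin4-1. An offset of 16 gave 1 member lower in bin4-1, medians of -0.06 in bin4-1 and 0.04 between alleles, 0.42 for AT4G15700 minus AT4G15690, and changes of -1.90 in bin4-2 and -1.96 in bin4-1 for AT2G47880, since the offset shrinks changes of dim probe sets. With a mean log2 of at least 5 only AT5G18600 was left, so 0 members were lower in either allele, the medians were its 0.69 in bin4-2, 0.83 in bin4-1 and -0.14 between alleles, and no tandem pair had a value. That filter left 1 other CC-type gene lower in each allele and 3 flanking genes lower. Titles with and without a suffix were used as a replicate block: 2 members stayed lower in each allele and 0 differed between alleles, only the AT4G32950 call in bin4-1 was lost (adjusted p = 0.051), and deviations of same-placed arrays correlated at -0.045, 0.0774 and -0.00324, so no pairing was taken. The alternatives for other CC-type, flanking and other genes outside the 10 loci were chosen after seeing the data. Fits with 1 array in a group assume it varies like the others. Dim probe sets limit what falls can be seen.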
